A study of Homo sapiens with 9 samples.

Results

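Long intergenic noncoding RNAs (lincRNAs) are transcripts of genes that lie outside protein-coding genes and encode no known protein, and 117 of the 3026 that the count table of human spinal cord organoids (SCOs) lists are described here. Members were chosen by level: the table had to give the gene the biotype lincRNA, and its raw count had to average at least 100 over the 6 vehicle and VPA libraries. Small nucleolar RNA host genes (SNHG names), GAS5 and MEG3 were left out by name, which removed 5 genes over that level. The table holds 30034 genes in all. The coordinates the table gives for the 116 members whose values are shown are those of GENCODE 29 on GRCh38, although the build the authors used is not given in the sources used here. The level that chose the members is a description and not a result. LINC00467, AL035071.1 and LINC01139 were just inside the limit, with means of 102, 102 and 107 counts, and PTPRD-AS1, LINC01521 and LINC01006 were just outside it, with 98.8, 97.8 and 97.3.

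SCOs were grown from WTC, a human induced pluripotent stem cell line with the genotype label WT. The study's methods describe 3 reporter clones of that line, with several SCOs of a clone pooled for RNA, and the labels do not tie a library to a clone. All SCOs began with an inhibitor of TGF-beta receptors and an activator of Wnt signalling (SB-431542 and CHIR99021), and the methods then list bFGF among the daily additions. The vehicle libraries carry FGF in their titles and the treatment label Vehicle, and the labels of the other groups do not mention FGF. The VPA group had valproic acid, which inhibits histone deacetylases and is an antiepileptic drug that raises the risk of neural tube defects, and the VPA+Rapamycin group had VPA together with an inhibitor of the mTOR kinase. Treatment lasted 96 h and each condition has 3 libraries, so p-values measure the spread between those libraries.

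A lincRNA works as RNA, or its transcription itself matters to the gene beside it. Some, such as NEAT1 and MALAT1, are built into bodies of the nucleus, some carry a microRNA in an exon or intron that is cut out of the same transcript, and some arise from the start site of a coding gene in the opposite direction. Many are made in one cell type or at one stage, and neurons have a large set of them. Libraries were made from RNA caught on poly-T beads, which hold RNAs with a poly-A tail. The level of an RNA without a stable tail, such as most of MALAT1, is therefore not a measure of its amount in the cell.

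The libraries held 15290294 to 17417338 counts on genes. Members took 0.389 to 0.418% of the counts in the vehicle libraries, 0.296 to 0.318% in the VPA libraries and 0.321 to 0.373% in the VPA+Rapamycin libraries, so the 3 VPA libraries lay below all others. Of the 116 members whose values are given, 99 averaged at least 100 counts both in vehicle and in VPA and 17 reached the limit through 1 of these conditions. TTTY15 counts among the members and its values are not printed. Members ranged from 428 to 28487 bases of exon, with a median of 3318 bases, and 45 consisted of a single exon block. A set of 48 had only a clone-based name. The strand setting of the counting is not given in the sources used here, and 35 members overlap another listed gene whose mean count is over 10% of their own, 22 of them with shared exon bases, so reads of those pairs cannot be told apart.

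Most lincRNAs that changed with VPA fell. Of the 117 members, 47 were lowered and 11 were raised by VPA at an adjusted p of at most 0.05 in edgeR's quasi-likelihood test, and 59 did not pass. Among all 17360 genes tested, 15.7% were lowered and 16.4% raised, and among the 11966 with the same mean count of at least 100, 18.2% were lowered and 17.4% raised, while 40.2% of the members were lowered and 9.4% raised. The median log2 fold change was -0.29 over the members and 0.00 over all genes tested. Restricted to the 99 members with at least 100 counts in both conditions, 38 were lowered and 9 raised. Protein-coding genes of the same level were called in near equal shares, 17.6% lowered and 18.0% raised of 11366, whereas antisense genes, the other large class of long noncoding RNA, had 34 lowered and 5 raised of 110. Leaving out a library kept the number of lowered members between 32 and 48. The number raised was 6, 5 and 4 without VPA replicate 1, 2 and 3, and 5 without vehicle replicate 2. Of the 81 members shown with no such overlapping gene, 7 were raised and 32 lowered.

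**Figure D1:**
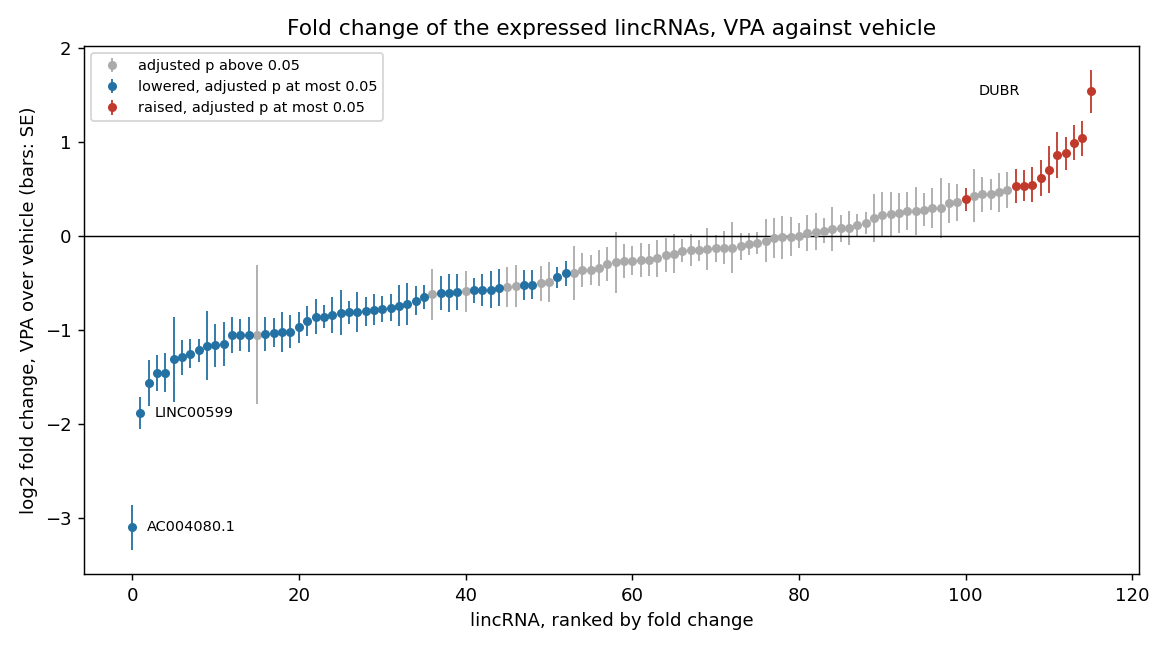
Log2 fold change of 116 lincRNAs, VPA over vehicle, ranked from the lowest to the highest, with bars for the SE (3 libraries in each condition). Blue points are lowered and red points raised at an adjusted p of at most 0.05, grey points did not pass, and AC004080.1 lies apart at -3.10 while DUBR is highest at 1.54.

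Length moved with the direction of change, and in all genes too. Of the 39 members with the most exon sequence (5180 to 28487 bases), VPA lowered 21 and raised 2, and of the 39 shortest (428 to 2321 bases) it lowered 10 and raised 5. Among all genes of at least 100 counts, 23.0% were lowered and 14.3% raised in the length range of the longest members, and 10.1% were lowered and 23.0% raised in that of the shortest. In both ranges a larger share was lowered among the members than among all genes. The part of length in the result was not tested.

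Adding Rapamycin to VPA went with higher lincRNA levels. Against VPA alone, 17 members were raised and 2 lowered in VPA+Rapamycin, with 98 not passing, where 3.01% of all 17317 genes tested were raised and 3.73% lowered, and 3.9% and 4.5% of the 11965 with at least 100 counts. The median log2 fold change was 0.16 over the members and 0.00 over all genes. In the same contrast 9 antisense genes of 110 were raised and 1 lowered. This result depended on the fit: with all 9 libraries in 1 fit, 1 member was raised (AL359091.1) and 0 lowered. The calls over all genes went from 522 raised and 646 lowered to 44 and 69. DESeq2 called 18 members raised and 1 lowered. Without VPA replicate 1, 2 and 3 the raised count was 8, 5 and 11, and without VPA+Rapamycin replicate 2 and 3 it was 9 and 7. Of all genes tested, 1.46, 0.978, 1.89, 2.69 and 1.22% were raised in these fits, in that order. The lowered count was 0 without VPA replicate 2, VPA replicate 3 or VPA+Rapamycin replicate 3, and 1 without VPA+Rapamycin replicate 2. The shares of all genes lowered were 1.66, 2.41, 1.94 and 3.4%, in that order.

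Against vehicle, the VPA+Rapamycin SCOs had 25 members lowered, 10 raised and 82 not passing. Of all 17383 genes tested, 9.22% were lowered and 9.81% raised, and of the 11966 with at least 100 counts 11.2% and 10.4%. The median log2 fold change of the members was -0.14. The lowered count was 12, 12 and 11 without VPA+Rapamycin replicate 1, 2 and 3, and the raised count was 4, 5 and 4 without these and 5 without vehicle replicate 2. Calls over all genes fell too. Without VPA+Rapamycin replicate 1, 2 and 3, 2.97, 3.55 and 3.77% of all genes tested were lowered and 4.24, 4.58 and 4.8% raised. Without vehicle replicate 2, 4.9% were raised. Each pair of comparisons shares 3 libraries, so their values are set side by side and not compared. Of the members lowered by VPA with values given, 12 were raised and 34 not called in VPA+Rapamycin against VPA, and of the 11 raised by VPA, 1 was lowered and 10 were not called.

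**Figure D2:**
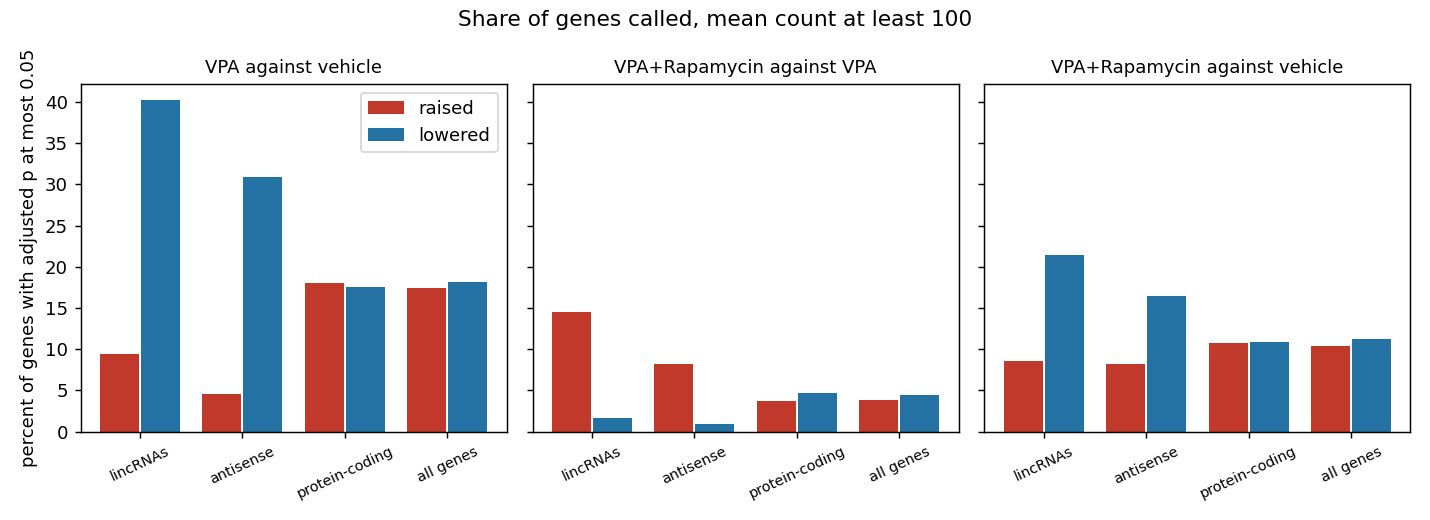
Percent of genes raised (red) and lowered (blue) at an adjusted p of at most 0.05 in the 3 comparisons, for the 117 lincRNAs and for antisense, protein-coding and all genes with a mean count of at least 100. In VPA against vehicle 40.2% of the lincRNAs and 17.6% of the protein-coding genes were lowered, and in VPA+Rapamycin against VPA 14.5% and 3.74% were raised.

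AC004080.1 had the lowest fold change of all members shown, and it reached the level limit through vehicle, where it was high. Among members with at least 100 counts in both conditions LINC00599 was lowest. AC004080.1 is a spliced RNA of 757 bases and 2 exon blocks on the minus strand at chr7:27239243-27241228. It lies beyond the posterior end of the HOXA cluster, and its start is 1472 bases from that of EVX1, which runs the other way. EVX1 is a homeobox factor of caudal tissue and of V0 interneurons in the spinal cord. Because AC004080.1 has only a clone-based name, the first 200 of its 757 bases are shown 5′ to 3′. They are as GENCODE 29 gives the transcript AC004080.1-201, with no capitals since no part of it is singled out.
AC004080.1-201: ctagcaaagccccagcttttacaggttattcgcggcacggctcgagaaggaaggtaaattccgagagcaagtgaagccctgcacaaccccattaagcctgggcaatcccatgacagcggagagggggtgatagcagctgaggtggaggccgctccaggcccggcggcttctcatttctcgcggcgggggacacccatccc
Vehicle libraries held 261, 280 and 291 raw counts of it, against 35, 22 and 46 with VPA, and 69, 145 and 55 with VPA+Rapamycin. The 3 conditions did not overlap, with VPA lowest and VPA+Rapamycin between VPA and vehicle. VPA lowered it 8.56-fold (log2 fold change -3.10, SE 0.24, adjusted p = 1.56e-05), and the estimate lay between -3.33 and -2.88 over 13 alternatives, the omission of each library among them. In VPA+Rapamycin against VPA the log2 fold change was 1.40 (SE 0.34, adjusted p = 0.0179), which did not pass without VPA replicate 2, without VPA+Rapamycin replicate 2 or with all 9 libraries in 1 fit. EVX1 itself went from 465 ± 44.1 normalised counts (SD, n = 3) in vehicle to 81.0 ± 52.6 with VPA and 129 ± 28.6 with VPA+Rapamycin, and was lowered by VPA as well (log2 fold change -2.52, adjusted p = 0.000319 in edgeR). Of 6 caudal HOX genes (HOXB4, HOXB6, HOXB8, HOXC6, HOXC8 and HOXA7), 4 were lowered by VPA, and their summed level was 3702 to 6143 normalised counts in vehicle, 2361 to 2671 with VPA and 3012 to 3818 with VPA+Rapamycin. In bulk SCOs fewer cells of a type and less RNA per cell cannot be told apart.

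The nuclear RNAs divided. MALAT1, a component of nuclear speckles, and NEAT1, the scaffold of paraspeckles, are neighbours on chromosome 11. Their counts in these poly-T selected libraries moved in opposite directions with VPA. MALAT1 (chr11:65497688-65506516, plus strand, a single exon block) had counts of 6883, 7674 and 6489 in vehicle, 3614, 4015 and 4731 with VPA, and 4436, 5772 and 5382 with VPA+Rapamycin. All VPA libraries lay under all vehicle libraries, a 1.81-fold fall (log2 fold change -0.85, SE 0.12, adjusted p = 0.00049). It was 1.28-fold higher with VPA+Rapamycin than with VPA (adjusted p = 0.0306), a call lost in 5 of 13 alternatives. NEAT1 (chr11:65422774-65445540, plus strand) had 651, 627 and 713 counts in vehicle, 816, 911 and 1041 with VPA, and 982, 1316 and 1154 with VPA+Rapamycin. The NEAT1 count joins 8 annotated transcripts, which poly-T beads may not catch alike, and these were not told apart. Its groups did not overlap between vehicle and either treatment. It was raised 1.31-fold by VPA (adjusted p = 0.0291, lost with the replicate block and without VPA replicate 2, VPA replicate 3 or vehicle replicate 2, with 0.124 as the highest value) and 1.67-fold in VPA+Rapamycin against vehicle (log2 fold change 0.74, SE 0.13, adjusted p = 0.00428).

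MIAT, an RNA of the nervous system that stays in the nucleus and binds splicing factors, was the second-highest member by raw count after NORAD. Its counts were 10407, 8213 and 7694 in vehicle, 3722, 3462 and 4799 with VPA, and 3937, 5992 and 5270 with VPA+Rapamycin. It fell 2.32-fold with VPA (log2 fold change -1.21, SE 0.13, adjusted p = 8.25e-05) and was still 1.79-fold below vehicle with VPA+Rapamycin (adjusted p = 0.00476). The difference between VPA+Rapamycin and VPA was 0.37 on the log2 scale and did not pass (adjusted p = 0.0674). FTX, which lies in the X-inactivation centre, had 474, 566 and 710 counts in vehicle, 281, 288 and 328 with VPA, and 449, 521 and 484 with VPA+Rapamycin. It was lowered 2.07-fold by VPA (adjusted p = 0.000997) and was 1.65-fold higher in VPA+Rapamycin than in VPA (adjusted p = 0.000633), a call that was lost with all 9 libraries in 1 fit (adjusted p = 0.0528). NORAD, a cytoplasmic RNA that binds Pumilio proteins, had the highest level per kb of all members shown (1416 counts per kb over the vehicle and VPA libraries). Its mean was 7952 ± 1140 normalised counts in vehicle, 7241 ± 46.5 with VPA and 7554 ± 523 with VPA+Rapamycin (SD, n = 3), and these overlapped.

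Of the 5 members in the list of nuclear and architectural RNAs (MALAT1, NEAT1, MIAT, NORAD and FTX), VPA lowered 3 and raised 1 (median log2 fold change -0.85). Proteins of paraspeckles (for NEAT1) and of nuclear speckles and MALAT1 processing were read beside them. Of 13 paraspeckle proteins 3 were lowered (NONO, HNRNPH3 and CPSF6) and 1 raised (FAM98A), with a median of -0.08. Of 9 nuclear speckle and MALAT1-processing proteins 3 were lowered (SRRM2, SON and METTL16) and 1 raised (ELAC2, the nuclease that cuts the end of transfer RNAs), with a median of -0.10. In VPA+Rapamycin against VPA the medians were -0.01 and -0.05 and no call was made in either list.

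**Figure D3:**
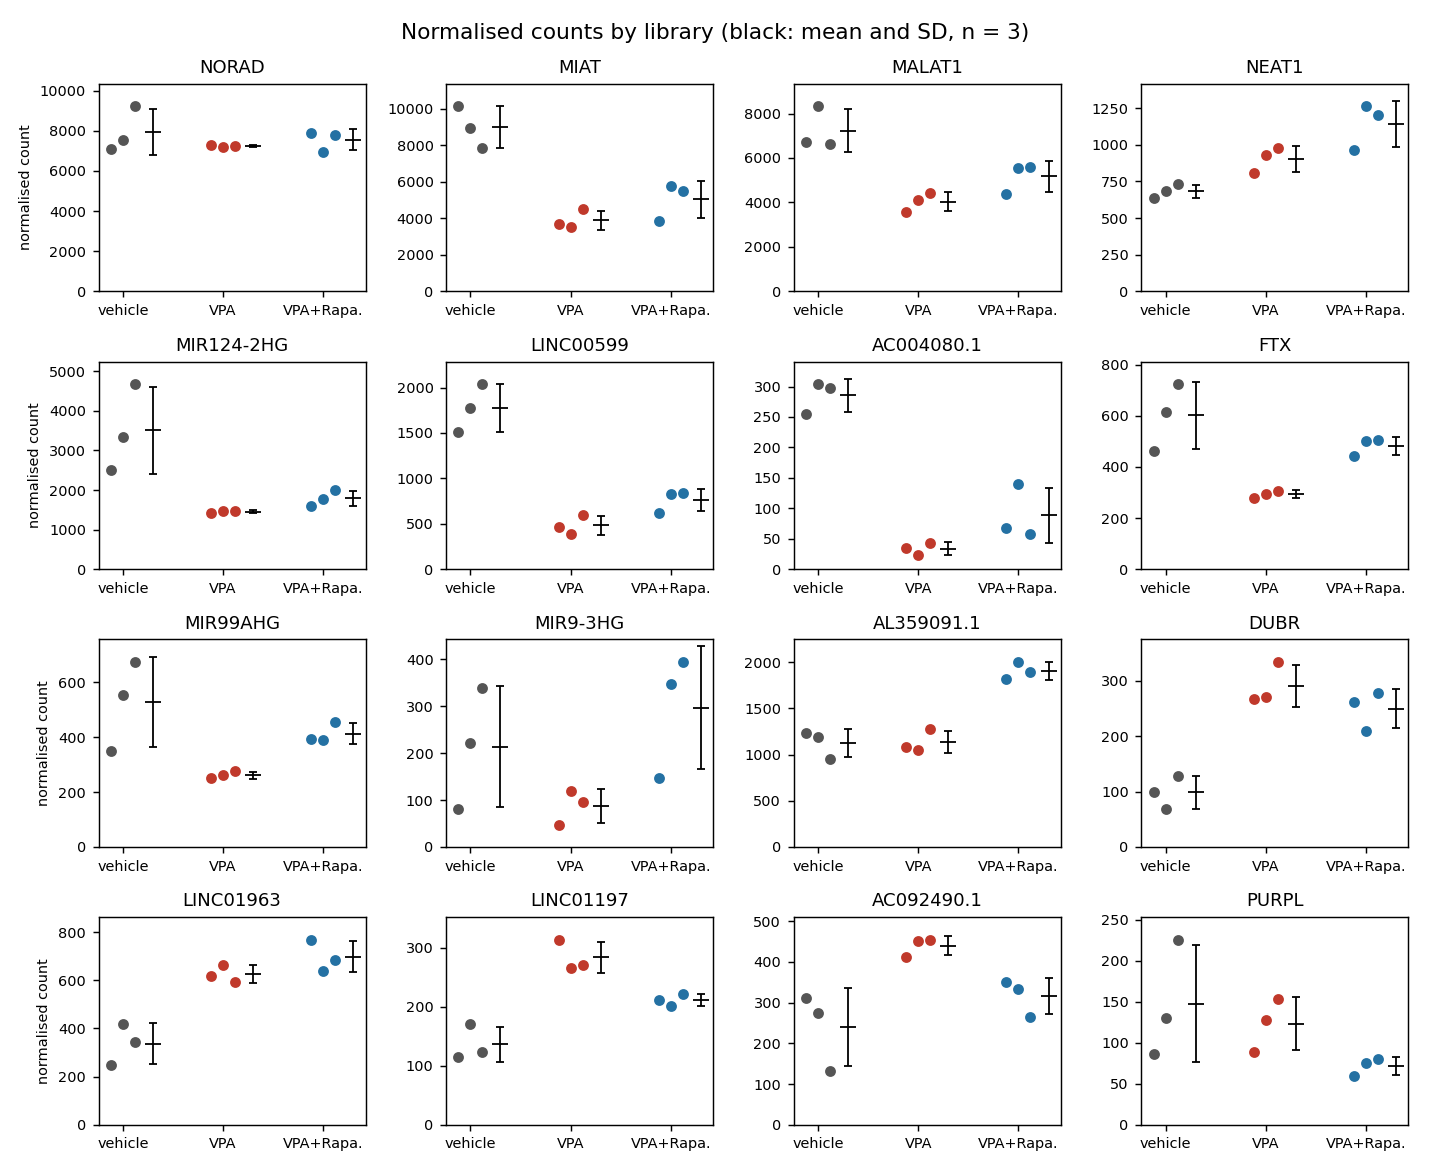
Normalised counts (TMM over the 9 libraries) of 16 lincRNAs, 1 panel each with its own axis from 0, with a point for each library and the mean and SD in black (n = 3). VPA libraries lie under the vehicle libraries for MIAT, MALAT1, MIR124-2HG, LINC00599, AC004080.1, FTX and MIR99AHG, and above them for NEAT1, DUBR, LINC01963, LINC01197 and AC092490.1.

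Hosts of microRNAs were among the members that fell. GENCODE 29 places a microRNA gene on the same strand within 15 of the members shown, a set put together after values were seen. VPA lowered 10 of them and raised 1 (NEAT1), with a median log2 fold change of -0.97, against 36 lowered and 10 raised of the other 101, with a median of -0.25. MIR9-3HG, MIR217HG and PVT1 reached the level limit through vehicle alone, where they were higher. Over members with at least 100 counts in both vehicle and VPA, a restriction added after seeing the data, 7 of 12 hosts were lowered and 1 raised (median -0.86), against 31 lowered and 8 raised of the other 87 (median -0.25). In VPA+Rapamycin against VPA 6 of the 15 were raised and 0 lowered, against 11 raised and 2 lowered of the 101. The counts are of the host RNA and not of the microRNA, which is too short for these libraries. To show what these hosts carry and which of them share a seed, mature microRNAs of 8 of the hosts are shown from RefSeq (GRCh38.p14), 5′ to 3′, with the seed, bases 2 to 8, in capitals. The seed is the part that pairs with target messages.
miR-9-5p (MIR9-3HG and LINC00461): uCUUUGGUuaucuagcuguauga
miR-9-3p (MIR9-3HG and LINC00461): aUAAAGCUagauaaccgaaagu
miR-99a-5p (MIR99AHG): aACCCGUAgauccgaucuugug
let-7c-5p (MIR99AHG): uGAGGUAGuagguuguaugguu
let-7i-5p (AC048341.1): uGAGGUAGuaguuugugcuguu
miR-125b-5p (MIR99AHG): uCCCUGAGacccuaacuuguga
miR-219a-5p (AL359091.1): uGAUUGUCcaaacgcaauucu
miR-34a-5p (MIR34AHG): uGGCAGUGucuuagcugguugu
miR-217-5p (MIR217HG): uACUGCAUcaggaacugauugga
miR-216a-5p (MIR217HG): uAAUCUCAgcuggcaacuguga
miR-374b-5p (FTX): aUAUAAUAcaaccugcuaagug
let-7c-5p and let-7i-5p have the same seed and come from hosts on chromosomes 21 and 12, and the identical miR-9-5p is encoded in hosts on chromosomes 15 and 5.

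LINC00599 and MIR124-2HG were the members that host a gene of miR-124, the main microRNA of neurons. Together with MIR217HG and MIR9-3HG they had the lowest log2 fold changes with VPA of this set. LINC00599 had 1540, 1630 and 1997 counts in vehicle, 473, 382 and 636 with VPA, and 632, 861 and 803 with VPA+Rapamycin. It fell 3.69-fold with VPA (log2 fold change -1.88, SE 0.17, adjusted p = 3.42e-05) and was 1.57-fold higher in VPA+Rapamycin than in VPA (adjusted p = 0.00787, not passing without VPA replicate 2 or with all 9 libraries in 1 fit, where it was 0.0982 at most). MIR124-2HG had 2554, 3079 and 4585 counts in vehicle, 1428, 1452 and 1559 with VPA, and 1625, 1836 and 1918 with VPA+Rapamycin. The vehicle libraries spread widely, yet the lowest of them was above all treated libraries, and VPA lowered the RNA 2.44-fold (adjusted p = 0.000551). Its rise from VPA to VPA+Rapamycin was 1.23-fold (adjusted p = 0.0345) and was lost in 5 of 13 alternatives.

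MIR9-3HG and LINC00461 were the members that host a gene of miR-9, a microRNA of neural progenitors. MIR9-3HG (chr15:89361579-89398487, plus strand) had 83, 203 and 331 counts in vehicle, 47, 116 and 102 with VPA, and 150, 361 and 379 with VPA+Rapamycin. Replicate 1 was the lowest library in each condition. Vehicle and VPA overlapped as groups, VPA was below vehicle within each replicate number, and the call for VPA (log2 fold change -1.31, SE 0.45, adjusted p = 0.0447) was lost in 6 of 13 alternatives, DESeq2 among them and the replicate block not. Every VPA+Rapamycin library was above every VPA library, a 3.42-fold difference (log2 fold change 1.77, SE 0.31, adjusted p = 0.00176) that was lost only with all 9 libraries in 1 fit (adjusted p = 0.105). LINC00461 (chr5:88507546-88691041, minus strand) had 802, 1438 and 2047 counts in vehicle, 1678, 1599 and 1958 with VPA, and 1349, 2298 and 2166 with VPA+Rapamycin. These overlapped throughout and no comparison passed, with log2 fold changes of 0.19 (SE 0.26), 0.18 (SE 0.13) and 0.37 (SE 0.30) for VPA against vehicle, VPA+Rapamycin against VPA and VPA+Rapamycin against vehicle. A difference between these hosts was not tested.

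AL359091.1, the 1504-base RNA around miR-219a-2 at chr9:128392007-128393510 on the minus strand, was the clearest change with Rapamycin. miR-219a is best known from the maturation of oligodendrocytes. Its counts were 1258, 1093 and 928 in vehicle, 1096, 1035 and 1357 with VPA, and 1848, 2087 and 1824 with VPA+Rapamycin. Vehicle and VPA overlapped and every VPA+Rapamycin library was above them. The log2 fold change was 0.75 (SE 0.08, adjusted p = 3.07e-05) against VPA and 0.76 (SE 0.12, adjusted p = 0.00262) against vehicle, and the first of these passed in all 13 alternatives, with all 9 libraries in 1 fit at an adjusted p of 0.0098. The gene shares exon bases with URM1 on the other strand, a ubiquitin-like protein that modifies transfer RNA. URM1 had 679 ± 80.7, 829 ± 52.2 and 764 ± 51.3 normalised counts in the 3 conditions, and its log2 fold change in VPA+Rapamycin against VPA was -0.11 (SE 0.09, adjusted p = 0.51).

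MIR99AHG (chr21:15928296-16645065), which spans 3 microRNAs, had 358, 510 and 660 counts in vehicle, 253, 256 and 293 with VPA, and 399, 404 and 438 with VPA+Rapamycin. VPA lowered it 2.03-fold (adjusted p = 0.00407), and it was 1.58-fold higher with Rapamycin added (adjusted p = 0.00219, and 0.145 with all 9 libraries in 1 fit). AC048341.1, the host of let-7i, was lowered 1.96-fold by VPA (adjusted p = 0.00155), with 350, 323 and 284 counts in vehicle against 191, 138 and 188. MIR217HG was lowered 2.95-fold (adjusted p = 0.000814), from 163, 182 and 273 counts to 83, 70 and 68. MIR34AHG, whose microRNA is a target of p53, stood at 251, 219 and 223 counts in vehicle, 133, 91 and 132 with VPA, and 122, 125 and 105 with VPA+Rapamycin. It was lowered 2.06-fold by VPA (adjusted p = 0.00177) and 2.05-fold with both agents (adjusted p = 0.0024), and the 2 treated groups overlapped.

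**Figure D4:**
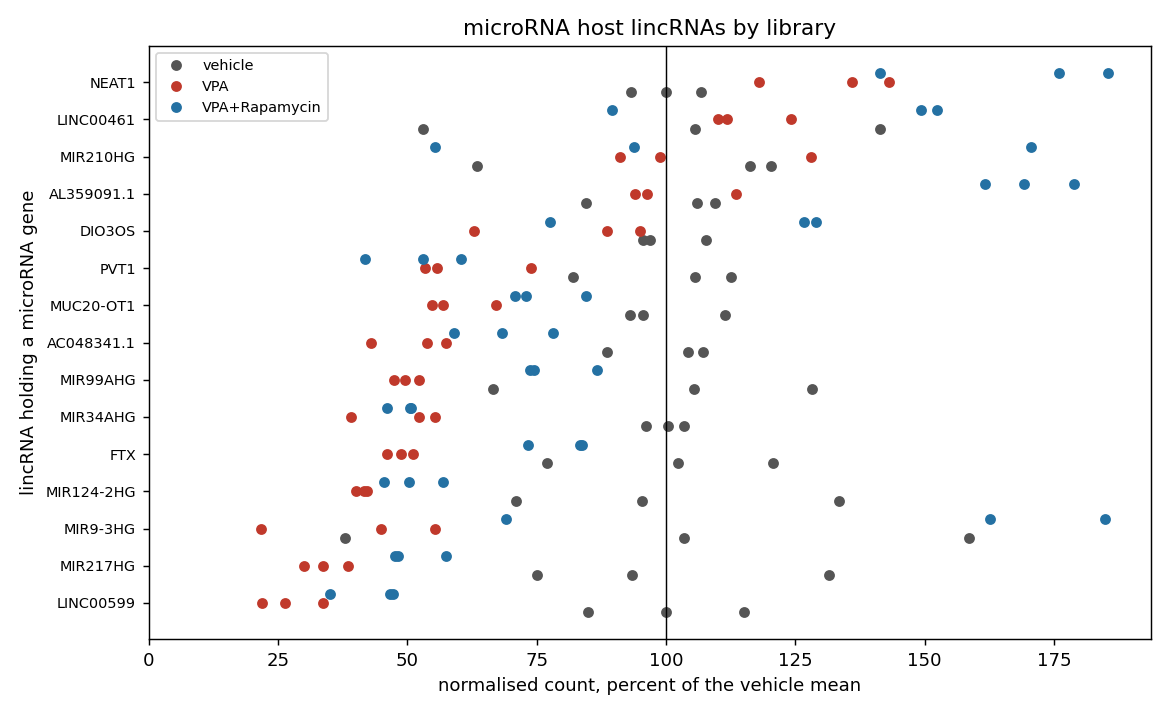
Normalised counts of the 15 lincRNAs that hold a microRNA gene, as percent of the vehicle mean of each, with a point for each library (3 for each condition). All VPA points (red) of LINC00599, MIR217HG, MIR124-2HG, FTX, MIR34AHG, MIR99AHG, AC048341.1, MUC20-OT1 and PVT1 lie left of the vehicle points (grey), and the VPA+Rapamycin points (blue) of AL359091.1 lie right of the other 2 groups.

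Neural lincRNAs were read beside neuronal markers. Of the 7 members in the list of neural lincRNAs (LINC00461, CRNDE, LINC00599, CASC15, PWAR6, MIR124-2HG and MIR9-3HG), 4 were lowered by VPA and none raised (median log2 fold change -0.58), and 3 were raised in VPA+Rapamycin against VPA. Of the 7 in the list of microRNA hosts, 5 were lowered by VPA and 4 raised with Rapamycin added. Of 10 neuronal markers 5 were lowered by VPA (DCX, TUBB3, MAP2, ELAVL3 and ELAVL4), and STMN2, INA, GAP43, SYT1 and SNAP25 did not pass. Summed, they gave 26067 to 44997 normalised counts in the vehicle libraries, 24280 to 25832 with VPA and 26074 to 27394 with VPA+Rapamycin. The vehicle libraries thus differed among themselves more than the VPA libraries did. Vehicle replicate 3 had the most counts of STMN2 (6881, 8275 and 11593 in vehicle), TFAP2B (2, 2 and 307), DCN (0, 0 and 97) and LUM (82, 67 and 578). It had the fewest of COL1A1 (3376, 1553 and 1163) and SOX10 (347, 248 and 230). Without vehicle replicate 3, VPA lowered 46 members and raised 12, where 17.6% of all genes tested were lowered and 18.6% raised. The part of the neuronal markers in the fall of the lincRNAs was not tested. CRNDE, an abundant RNA of progenitors and tumours, had 2973 ± 446, 2698 ± 254 and 2753 ± 386 normalised counts in the 3 conditions (SD, n = 3), with overlap throughout.

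Of the other cell types, 8 spinal cord progenitor markers gave 1 raised by VPA (HES5), with summed levels of 39759 to 43449 in vehicle and 47030 to 49341 in VPA. HES5 made up most of this difference, with means of 5223 normalised counts in vehicle and 10172 with VPA. No other progenitor marker passed for VPA, and SOX2, PAX6 and NES had log2 fold changes of 0.02, -0.03 and 0.02. Of 9 neural crest markers tested, 4 were lowered and 2 raised by VPA. Of 11 mesenchyme markers 3 were raised by VPA (COL1A1, COL1A2 and THY1) and 6 lowered in VPA+Rapamycin against VPA. The mesenchyme markers summed to 3139 to 6064, 10668 to 13199 and 5238 to 7204 normalised counts in vehicle, VPA and VPA+Rapamycin. COL1A1 and COL1A2 made up most of the sum with VPA, with means of 4463 and 5277, and the mesenchyme markers other than these and THY1 were not called for VPA. Of 3 pluripotency markers tested, 1 was raised (L1TD1) and 1 lowered (DPPA4) by VPA, while POU5F1 and NANOG were under a mean of 10 counts. Mesoderm markers summed to 25.6 to 71.0 normalised counts over the vehicle and VPA libraries, endothelium markers to 60.1 to 109, and immune markers to 0.987 to 2.93, and none of those tested was called. The labelled tissue has its defining progenitor and neuronal markers in every library.

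Lists of other known lincRNAs held few members. None of the 9 names in the pluripotency list was a member. The list of HOX and imprinted lincRNAs held PWAR6 alone, from the Prader-Willi region, which was lowered by VPA (log2 fold change -0.52, adjusted p = 0.0274). Of 8 growth and stress lincRNAs, VPA lowered PVT1, EPB41L4A-AS1 and MIR34AHG and raised NEAT1. EPB41L4A-AS1 had 600, 469 and 738 counts in vehicle, 383, 345 and 365 with VPA, and 412, 450 and 393 with VPA+Rapamycin, a 1.74-fold fall with VPA (adjusted p = 0.00305). It shares exon bases with EPB41L4A, which was also lowered (log2 fold change -0.57, adjusted p = 0.00658). PVT1 had 165, 108 and 148 counts in vehicle and 81, 75 and 113 with VPA (log2 fold change -0.72, adjusted p = 0.0296, not passing without VPA replicate 1, VPA replicate 2 or vehicle replicate 1). PURPL, an RNA induced by p53, had 89, 120 and 221 counts in vehicle, 90, 125 and 163 with VPA, and 61, 78 and 77 with VPA+Rapamycin. The VPA+Rapamycin libraries lay under the others, but the call against VPA (log2 fold change -0.78, adjusted p = 0.0487) was lost in 8 of 13 alternatives.

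DUBR, a lincRNA first described in muscle precursor cells, had the highest fold change with VPA, and it reached the level limit through VPA, where it was high. Among members with at least 100 counts in both conditions LINC01197 was highest. The DUBR gene lies at chr3:107240692-107326964 on the plus strand, 50230 bases from the nearest protein-coding gene. DUBR had 102, 63 and 125 counts in vehicle, 270, 266 and 356 with VPA, and 266, 218 and 266 with VPA+Rapamycin. Both treated groups were above vehicle without overlap, by 2.92-fold with VPA (log2 fold change 1.54, SE 0.23, adjusted p = 0.000594) and by 2.50-fold with VPA+Rapamycin (adjusted p = 0.00411). LINC01197 (chr15:95209099-95327129) had 118, 157 and 121 counts in vehicle, 318, 261 and 288 with VPA, and 215, 209 and 213 with VPA+Rapamycin. It was raised 2.06-fold by VPA (adjusted p = 0.00196), and VPA+Rapamycin lay between the other groups without overlap, though its difference from VPA did not pass (adjusted p = 0.0655).

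LINC01963 (chr2:216217045-216220192, a single exon block) had 253, 383 and 337 counts in vehicle, 627, 652 and 631 with VPA, and 783, 665 and 659 with VPA+Rapamycin. It was raised 1.85-fold by VPA (adjusted p = 0.00321) and 2.07-fold with both agents (adjusted p = 0.00367). LINC01305 (chr2:174326027-174330643), 4303 bases from the interneuron factor SP9, had 126, 140 and 102 counts in vehicle against 246, 243 and 290 with VPA (2.00-fold, adjusted p = 0.00217). SP9 was at a log2 fold change of 0.06 (adjusted p = 0.75). AC092490.1 was the member raised by VPA and lowered again with Rapamycin added, with 320, 253 and 129, then 418, 444 and 485, then 356, 348 and 255 counts in vehicle, VPA and VPA+Rapamycin. Neither call was stable: the first (adjusted p = 0.0207) was lost without any 1 of the VPA libraries, and the second (adjusted p = 0.0239) without VPA replicate 2, VPA replicate 3 or VPA+Rapamycin replicate 3 and with all 9 libraries in 1 fit.

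Other members that fell with VPA had little known function. AL021368.2 had 375, 317 and 433 counts in vehicle and 173, 153 and 173 with VPA, a 2.38-fold fall (adjusted p = 0.000242). LINC01355 had 201, 207 and 252 against 91, 80 and 83, a 2.74-fold fall (adjusted p = 0.000308), and it reached the level limit through vehicle, where it was high. AL021368.2 and LINC01355 were higher again in VPA+Rapamycin than in VPA at adjusted p of 0.0496 and 0.0398, calls lost in 7 of 13 alternatives each. BLACAT1 had 832, 487 and 463 counts in vehicle, 318, 261 and 322 with VPA, and 233, 343 and 217 with VPA+Rapamycin, and was 2.33-fold below vehicle with both agents (adjusted p = 0.00451). AC015813.1 was 1.96-fold below vehicle with both agents (adjusted p = 0.00223). AC092171.2 and DNAJC3-DT were above vehicle with both agents, 1.76-fold (adjusted p = 0.0161) and 1.58-fold (adjusted p = 0.0301). The first call was lost without VPA+Rapamycin replicate 1, VPA+Rapamycin replicate 3 or vehicle replicate 2, with 0.0747 as the highest adjusted p, and the second without any 1 of the VPA+Rapamycin libraries or without vehicle replicate 2, with 0.117 as the highest.

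OLMALINC, an RNA next to SCD, the desaturase that makes monounsaturated fatty acids, was lowered by VPA and by both agents against vehicle. OLMALINC had 752, 603 and 762 counts in vehicle, 455, 407 and 409 with VPA, and 301, 372 and 329 with VPA+Rapamycin. All 3 groups were apart. It was lowered 1.75-fold by VPA (adjusted p = 0.000849) and 2.19-fold with both agents (adjusted p = 0.000567), while the step from VPA to VPA+Rapamycin did not pass (log2 fold change -0.32, adjusted p = 0.105). SCD, 8679 bases away, was lowered in all 3 comparisons, with log2 fold changes of -0.49, -0.39 and -0.88 for VPA against vehicle, VPA+Rapamycin against VPA and VPA+Rapamycin against vehicle (adjusted p = 0.00358, 0.0112 and 0.000553 in edgeR).

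Pairs that start side by side were looked at next. For 32 members the annotated start lay within 2000 bases of the start of a protein-coding gene on the other strand. VPA lowered 10 of these members, and of their partners 5 were lowered and 0 raised (EVX1, NBR1, OSER1, AFDN and ARID2 for AC004080.1, AC060780.1, OSER1-DT, AFDN-DT and AC008124.1). The partners of the 2 raised members parted: HES5, the partner of AL139246.5, was raised, and that of AL355001.2 did not pass. Of the 20 partners of members that were not called, 4 were raised and 4 lowered. Across the 32 pairs the fold changes of member and partner had a Pearson r of 0.656 and a Spearman rho of 0.416, and without AC004080.1 these were 0.324 and 0.358 over 31. The points share libraries, and pairs that overlap share reads if strand was not used. Over 101 members and their nearest protein-coding genes, at any distance and on either strand, Pearson r was 0.29 and Spearman rho 0.228. Of these nearest genes, 11 were lowered and 5 raised for 41 lowered members, and 12 lowered and 6 raised for 51 members not called. MYC, nearest to the lowered PVT1, was among the raised (log2 fold change 1.09, adjusted p = 0.00144 in edgeR), as were GPR157 and EFEMP1 near MIR34AHG and MIR217HG.

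AL139246.5 (chr1:2530064-2547460, plus strand) starts 181 bases from HES5, a Notch target that holds cells in the progenitor state. The gene bodies overlap (distance 0), so AL139246.5 may hold reads of HES5, the more abundant RNA, if strand was not used. AL139246.5 had 436, 285 and 352 counts in vehicle, 474, 492 and 679 with VPA, and 413, 571 and 456 with VPA+Rapamycin. The call for VPA against vehicle (adjusted p = 0.0256 in edgeR) was lost without VPA replicate 2, VPA replicate 3 or vehicle replicate 2. HES5 had 5223 ± 35.3, 10172 ± 1212 and 6662 ± 597 normalised counts in the 3 conditions, was raised by VPA (log2 fold change 0.95, adjusted p = 0.000114) and lower in VPA+Rapamycin than in VPA (log2 fold change -0.61, adjusted p = 0.000444), where AL139246.5 was at -0.17 (adjusted p = 0.499). CRNDE starts 1673 bases from IRX5, which was raised by VPA (log2 fold change 0.67, adjusted p = 0.00183) and lowered with Rapamycin added (-0.52, adjusted p = 0.00261), while CRNDE was at -0.15 and 0.03 and passed in neither. DIO3OS, beside DIO3, which inactivates thyroid hormone, was at -0.29 (adjusted p = 0.238) where DIO3 was raised (log2 fold change 0.72, adjusted p = 0.0109). AC060780.1 fell 1.56-fold with VPA (adjusted p = 0.00314) and was 1.43-fold higher with Rapamycin added (adjusted p = 0.00812, not passing without VPA replicate 2 or VPA+Rapamycin replicate 3 or with all 9 libraries in 1 fit). It shares exon bases with NBR1, an autophagy receptor, which was at -0.48 and 0.29 in the same comparisons (adjusted p = 0.00489 and 0.0188).

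**Figure D5:**
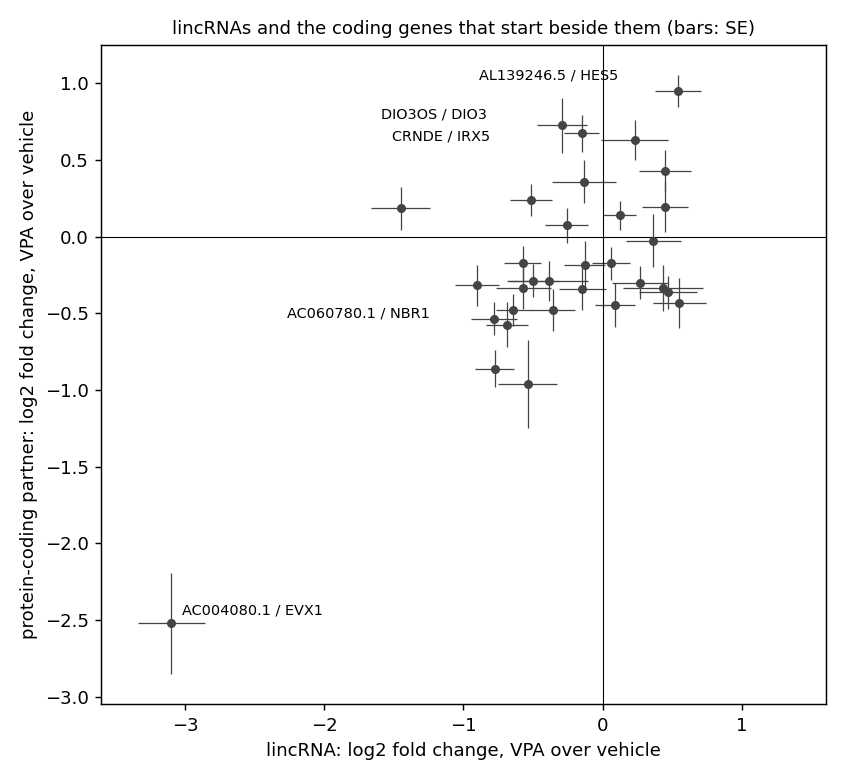
Log2 fold change, VPA over vehicle, of 32 lincRNAs (horizontal) and of the protein-coding genes that start within 2000 bases on the other strand (vertical), with bars for the SE. AC004080.1 and EVX1 lie alone at -3.10 and -2.52, and CRNDE with IRX5 and DIO3OS with DIO3 lie above 0 on the vertical axis only.

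Further members with high levels per kb did not pass the test. LINC02381, in the HOXC region, had 1039 ± 264, 961 ± 109 and 896 ± 115 normalised counts in vehicle, VPA and VPA+Rapamycin (SD, n = 3), LINC00404 had 126 ± 38.1, 117 ± 33.7 and 116 ± 17.2, and AC090204.1 had means of 273, 326 and 324. The groups overlapped for each, and their edgeR adjusted p was 0.409 or more in all 3 comparisons.

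The spread between libraries of a condition set what could be seen. The median coefficient of variation over the 116 members was 16.8% for vehicle, 10.3% for VPA and 12.5% for VPA+Rapamycin. LINC01139 had the largest in each condition. Its counts were 16, 179 and 226 in vehicle, 17, 96 and 107 with VPA, and 10, 119 and 75 with VPA+Rapamycin, so replicate 1 was far below the others in each condition. Its log2 fold change of -1.05 for VPA had an SE of 0.74 and did not pass (adjusted p = 0.305), though it passed in 3 of 13 alternatives. Of the members just inside the level limit, AL035071.1 fell 2.23-fold with VPA (adjusted p = 0.00325) and LINC00467 was at a log2 fold change of 0.24 (adjusted p = 0.46). AL035071.1 reached that limit through vehicle, where it was higher.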

How the data were processed

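RNA of 9 SCO libraries, 3 for each condition, was sequenced after selection on poly-T beads. The submitters' processing notes name HISAT2 2.0.5 and featureCounts 1.5.0-p3; the strand setting is not given in the sources used here. The authors deposited raw counts for each gene in 3 pairwise tables, and these counts were used as deposited. The 36 size-factor-normalised and FPKM columns, and the columns with the authors' fold changes and p-values, were not used. Members and gene lists (nuclear RNAs, neural, microRNA host, pluripotency, growth and stress, and HOX and imprinted lincRNAs, paraspeckle and speckle proteins, cell type markers) were chosen with earlier results of these data known.

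Each pair of conditions was fitted on its 6 libraries with edgeR 4.0.16 in R 4.3.3 (TMM, filterByExpr, quasi-likelihood test, Benjamini-Hochberg adjustment over all genes tested, called at 0.05). Normalised counts are TMM-scaled over the 9 libraries. Genes named were, for each comparison, the 6 raised and the 6 lowered with the smallest adjusted p and the same sign in all 3 replicate numbers, the 10 with the most counts per kb, well-known list members, those beside the level limit, and their neighbours. Other genes of the lists, the microRNA hosts and the partners with their own calls were named after values were seen. Alternatives were DESeq2 1.42.0, RLE and upper-quartile scaling, other filters, all 9 libraries in 1 fit, the replicate block, other level limits and the omission of each library. The scripts were tested on simulated data. Sequences are from RefSeq (GRCh38.p14) and GENCODE 29.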

Additional observations from a re-analysis of the deposited data

How the results depend on the processing

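Counts of members in each comparison depended on the limits used. A level limit also sets how many members there are, so counts under other level limits are not shares. With a log2 fold change of at least 1 also required, VPA raised 2 and lowered 19, VPA+Rapamycin raised 2 and lowered 0 against VPA, and raised 2 and lowered 7 against vehicle. The share of all genes that pass this limit is not given here, so these counts cannot be read against a background. With a level limit of 50 the counts were 20 raised and 73 lowered by VPA, 4 lowered in VPA+Rapamycin against VPA and 18 raised against vehicle. With a limit of 200 they were 5 and 27 for VPA, 1 lowered against VPA, and 5 raised and 15 lowered against vehicle. The raised count of VPA+Rapamycin against VPA is not given here for the limits of 50 and 200. Of the 81 members shown that overlap no such gene, 7 were raised and 32 lowered by VPA. In VPA+Rapamycin against vehicle 6 of these were raised and 17 lowered. The count lowered in VPA+Rapamycin against VPA was 1 with DESeq2, upper-quartile scaling or at least 100 counts in each condition, and with all 9 libraries in 1 fit it was 0, with 1 raised; the cause was not tested. Leaving out a library gave 4 to 12 raised and 32 to 48 lowered by VPA, 5 to 22 raised and 0 to 3 lowered in VPA+Rapamycin against VPA, and 4 to 12 raised and 11 to 35 lowered against vehicle, with fewer samples and fewer calls over all genes in most of these fits. Of 37 named genes under 13 settings, 444, 408 and 433 values kept direction and side of the threshold in the 3 comparisons, 23, 47 and 32 lost the call, 7, 10 and 13 gained it, and 7, 16 and 3 changed sign, none of them a called value. RLE and upper-quartile scaling put the median of all genes between -0.00981 and 0.031, and DESeq2, which tested more genes, at -0.0644 for VPA.

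Same-numbered libraries did not deviate together (correlations from -0.0596 to 0.16), so the numbers were not taken as pairs. With a replicate block the counts were 8 raised and 44 lowered by VPA, 19 and 3 in VPA+Rapamycin against VPA, and 12 and 32 against vehicle. In VPA+Rapamycin against VPA the block turned the sign of the log2 fold change of AC090204.1, to 0.0017, and of LINC00404, to 0.0071. Neither gene passed in any alternative of that comparison.

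Signs also turned when a library was left out. The ranges of the log2 fold change for VPA were -0.0934 to 0.0797 for AL359091.1, -0.55 to 0.18 for PURPL, -0.31 to 0.017 for LINC02381, -0.37 to 0.16 for LINC00404 and -0.11 to 0.54 for LINC00461. For VPA+Rapamycin against VPA they were -0.086 to 0.18 for AC015813.1, -0.13 to 0.10 for MIR34AHG, -0.086 to 0.11 for CRNDE, -0.10 to 0.14 for AC090204.1, -0.15 to 0.24 for LINC00404 and -0.72 to 0.43 for LINC01139. For VPA+Rapamycin against vehicle they were -0.16 to 0.042 for NORAD, -0.23 to 0.0043 for CRNDE and -0.28 to 0.14 for LINC00404.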

Other observations

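Processed transcripts with a mean count of at least 100, a further noncoding class, had 21 lowered and 6 raised by VPA of 59, with a median log2 fold change of -0.14. In VPA+Rapamycin against VPA they had 3 raised and 3 lowered. Of 614 lincRNAs under 100 counts that could be tested, 76 were lowered (12.4%) and 50 raised (8.14%) by VPA. In VPA+Rapamycin against VPA, 2 were raised and 3 lowered of 627. The 5 lincRNAs left out by name had 2 raised and 1 lowered by VPA, and their median in VPA+Rapamycin against VPA was -0.37.

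By level, the 39 members with the highest mean counts had 20 lowered and 4 raised by VPA, and the 39 lowest had 13 lowered and 2 raised. In VPA+Rapamycin against VPA, 10 of the highest and 3 of the lowest were raised. Members of a single exon block had 17 lowered of 45, and the others 29 of 71.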
